A study of Homo sapiens with 9 samples.

Results

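The guanylate-binding proteins GBP1 to GBP7 are a family of large GTPases whose genes were measured on arrays of HUCCT-1 cells after depletion of the transcriptional co-activators YAP and TAZ. The 7 members were selected by their gene symbols from 37201 genes with a named probe set, and this choice was made with results of the same arrays known, among them the value of GBP6 with combination 2. Their differences are therefore given as a description and are not independent evidence. HUCCT-1 is a human cholangiocarcinoma (bile duct cancer) cell line. In the study the cells received either scrambled siRNA as a control or one of a pair of siRNA combinations against YAP and TAZ, at 40 nM, and the methods place the RNA harvest 24 h after transfection. Combination 1 joined YAP siRNA 1 to TAZ siRNA 2, and combination 2 joined YAP siRNA 2 to TAZ siRNA 3 by the labels. The methods name only the former pair for the arrays, and the arrays hold no group with YAP or TAZ depleted alone. Each of the 3 groups held 3 arrays, 9 in all, from 1 cell line grown without other treatment. The methods speak of biological samples but do not say whether they were separate cultures, so the spread behind each p-value may be in part technical.

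Guanylate-binding proteins are made in many cell types after exposure to interferons, above all to interferon gamma. They hydrolyse GTP, assemble on membranes and on the surface of bacteria in the cytosol, and several of them carry a lipid anchor at their C-terminus. In human epithelial cells GBP1 is the member that coats bacteria first, and it recruits GBP2, GBP3 and GBP4 to a platform on which the lipopolysaccharide sensor caspase-4 is activated. Interferons act on such genes through the GAS element, read by the dimer that interferon gamma activates, and through the interferon-stimulated response element (ISRE), read by interferon regulatory factors. YAP and TAZ do not bind DNA themselves and reach it through TEAD factors.

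All 7 genes lie in 1 stretch of chromosome 1, in the RefSeq order GBP3, GBP1, GBP2, GBP7, GBP4, GBP5 and GBP6, followed by the pseudogene GBP1P1. RefSeq promoter windows of 300 bases (250 before and 50 after the start of transcription, GRCh38.p14) were at hand for 5 members, namely GBP1, GBP3, GBP4, GBP6 and GBP7. The ISRE was searched as GAAA, any 2 bases and GAAA again, on both strands, and it was found once each in GBP1, GBP3 and GBP4 and had no match in the windows of GBP6 and GBP7. The same pattern occurs in 3.57% of 35116 RefSeq windows. The 3 stretches are shown because they let the members be compared base by base, with the ISRE match in capitals and 10 bases on either side, 5′ to 3′ along each gene.
GBP1 (chr1:89065316-89065345, minus strand): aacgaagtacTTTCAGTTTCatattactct
GBP3 (chr1:89022845-89022874, minus strand): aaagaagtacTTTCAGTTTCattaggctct
GBP4 (chr1:89198927-89198956, minus strand): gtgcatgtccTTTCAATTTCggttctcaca
The match began 127 bases before the start in GBP1, 4 bases before it in GBP4 and 2 bases after it in GBP3. GBP1 and GBP3 shared a run of 19 identical bases, the longest between any of the 5 windows, although it sat at different distances from their starts. The other pairs shared at most 13 bases in a row.

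The wider promoters of GBP1, GBP4 and GBP6 are shown because these 3 genes had the largest spread over the arrays. Each runs from 250 bases before the start up to the start, or to the end of the match in GBP4, with the ISRE match again in capitals.
GBP1 (chr1:89065209-89065458, minus strand): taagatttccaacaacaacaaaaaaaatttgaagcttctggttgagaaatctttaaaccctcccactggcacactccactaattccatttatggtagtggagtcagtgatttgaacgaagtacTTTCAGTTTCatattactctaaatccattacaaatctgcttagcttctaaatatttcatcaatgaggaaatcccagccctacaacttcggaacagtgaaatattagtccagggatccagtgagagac
GBP4 (chr1:89198937-89199192, minus strand): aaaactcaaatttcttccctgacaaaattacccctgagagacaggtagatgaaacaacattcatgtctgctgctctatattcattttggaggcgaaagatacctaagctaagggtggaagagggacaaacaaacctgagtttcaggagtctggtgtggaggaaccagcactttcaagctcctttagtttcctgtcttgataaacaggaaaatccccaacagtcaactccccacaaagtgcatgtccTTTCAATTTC
GBP6 (chr1:89363809-89364058, plus strand): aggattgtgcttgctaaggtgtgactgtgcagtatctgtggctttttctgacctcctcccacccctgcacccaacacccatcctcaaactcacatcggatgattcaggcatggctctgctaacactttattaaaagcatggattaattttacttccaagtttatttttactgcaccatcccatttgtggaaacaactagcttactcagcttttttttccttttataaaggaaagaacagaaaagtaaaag
The GAS element was searched only as the strict letters TTCNNNGAA (its own reverse complement), so elements that depart from these letters are missed. A match was found in the GBP3 window alone among the 5, 15 bases before the start and apart from the ISRE match. The pattern occurs in 7.66% of all windows. The lack of a match in the other windows, that of GBP1 included, does not show that a gene has no GAS element. The TEAD motif GGAATG or CATTCC, in 14% of all windows, had no match in any of the 5. These are matches of letters and say nothing about binding in these cells.

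The siRNA targets were lower in both depleted groups. YAP1 had a log2 signal of 9.15, 9.06 and 9.08 with scrambled siRNA, 6.84, 6.85 and 6.95 with combination 1, and 6.86, 6.73 and 6.97 with combination 2. WWTR1, which encodes TAZ, had 8.41, 8.30 and 8.38, then 6.97, 7.06 and 7.02, then 6.95, 6.98 and 6.99. The direct differences between the combinations were −0.027 for YAP1 (95% interval −0.19 to 0.14) and −0.044 for WWTR1 (−0.17 to 0.08). All 8 markers of biliary epithelium, keratins 7 and 19 among them, were above the background level on every array. This level was taken as the 95th percentile of the olfactory receptor genes on each array and lay between 5.61 and 5.86 on the log2 scale. The mean over 7 leukocyte markers, 3 of which were above background on all arrays (CD14, CD68 and CD8A), was 6.04 to 6.06 with scrambled siRNA, 6.08 to 6.15 with combination 1 and 6.07 to 6.20 with combination 2, and that over 6 hepatocyte markers 5.58 to 5.61, 5.64 to 5.71 and 5.62 to 5.72. The part of these small shifts in the values below was not tested. In RNA from whole cultures, fewer cells making a transcript and less of it per cell cannot be told apart.

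With combination 1 all 7 members had a higher mean than with scrambled siRNA, and the differences were largest for GBP4, GBP1, GBP6 and GBP5. The log2 differences ran from 0.31 for GBP7 to 1.65 for GBP4, with a median of 0.91 against 0.0175 over all genes. GBP5 was under the olfactory background on all scrambled arrays and GBP7 on all 9, and with the scrambled level of GBP5 set to that background the median was 0.59. By limma with Benjamini-Hochberg adjustment over all genes (threshold 0.05), 6 of 7 members were called higher and none lower, where 0.68% of all genes were called higher and 0.833% lower. On all 7 members every combination 1 array was above every scrambled array, as on 15.8% of all genes. With combination 2 only GBP6 was called higher, against a background of 0.304% called higher and 0.446% lower. The combination 2 arrays were all above the scrambled arrays for 5 members (11.6% of all genes), with a median difference of 0.19 against 0.0155 over all genes. Between the combinations GBP1, GBP4 and GBP5 were called lower with combination 2, where 0.237% of all genes were called lower and 0.0968% higher, and 5 members did not overlap (6.5% of all genes). Both comparisons against the control rest on the same 3 scrambled arrays, and since these contrasts chose the members, nothing is read from their shares.

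**Figure D1:**
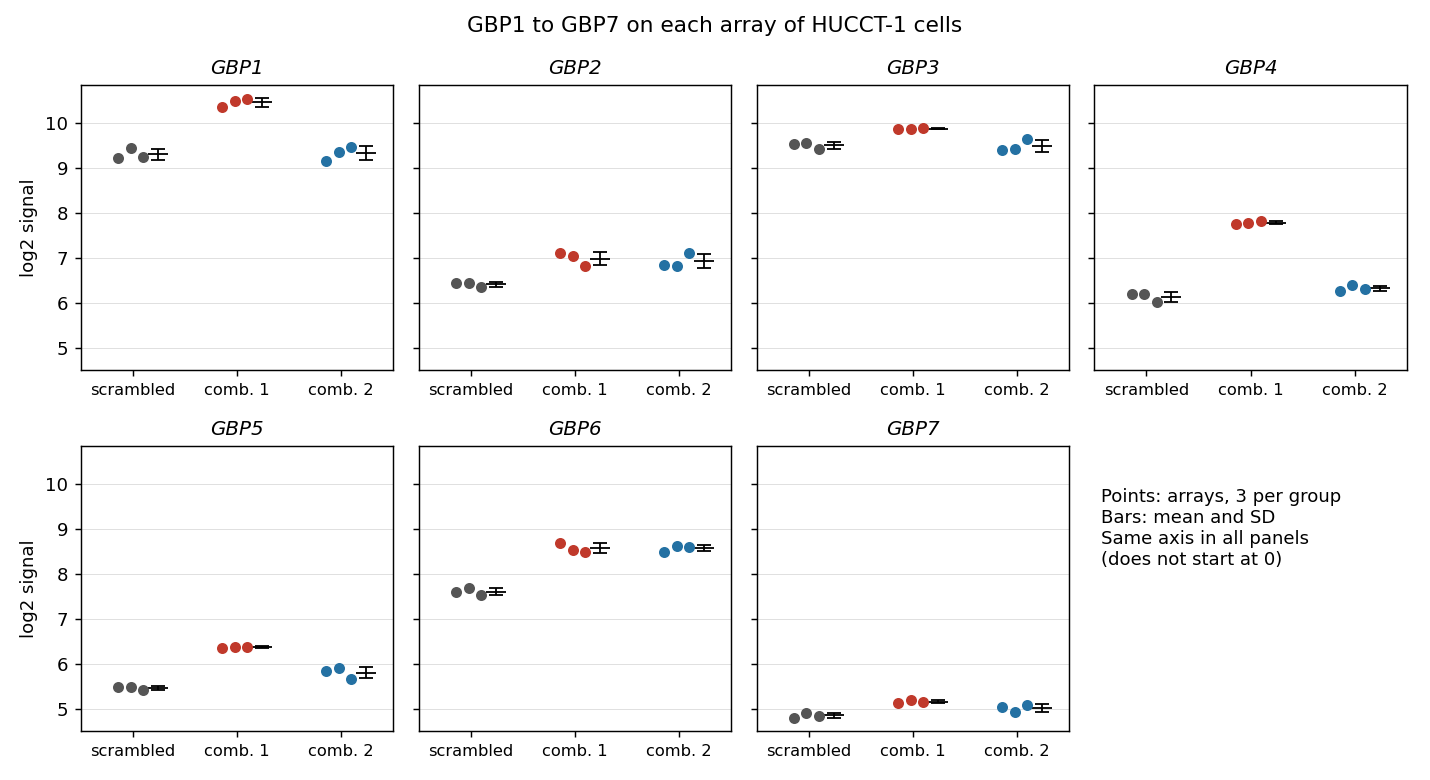
Log2 signal of each of the 7 genes (vertical axis, not starting at 0) on the 3 scrambled, 3 combination 1 and 3 combination 2 arrays, with the mean and SD beside the points. GBP1, GBP3 and GBP4 stand high with combination 1 alone, while GBP6 stands at about the same height with both combinations. Heights are to be compared within a gene, as each gene has its own probes.

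GBP1, the founder of the bacterial coat, gave 9.23, 9.46 and 9.26 with scrambled siRNA, 10.36, 10.50 and 10.55 with combination 1, and 9.17, 9.36 and 9.48 with combination 2. The combination 1 arrays formed a group of their own, and the combination 2 arrays lay among the controls. The difference was 1.16 ± 0.10 (SE, n = 3 per group) with combination 1, or 2.23-fold, and 0.024 with combination 2 (95% interval −0.20 to 0.25).

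GBP4, which GBP1 brings to the coat, gave 6.20, 6.21 and 6.02 with scrambled siRNA, 7.77, 7.79 and 7.82 with combination 1, and 6.28, 6.40 and 6.31 with combination 2. It had the largest difference of the family with combination 1, at 1.65 ± 0.07 (SE, n = 3) or 3.14-fold, and ranked 13 from the top among all genes. With combination 2 the arrays lay just above the controls, by a mean of 0.19 (95% interval 0.04 to 0.34) that was not called. The direct difference of combination 2 from combination 1 was −1.46 for GBP4 and −1.13 for GBP1, and on both genes no arrays of the combinations overlapped.

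GBP5, which with GBP2 impairs the protease furin and so the maturation of viral envelopes, gave 5.49, 5.49 and 5.42 with scrambled siRNA, 6.36, 6.39 and 6.38 with combination 1, and 5.84, 5.92 and 5.68 with combination 2. The 3 groups were stacked without overlap, combination 2 in the middle. The difference was 0.91 ± 0.07 (SE, n = 3) with combination 1 and 0.35 (95% interval 0.19 to 0.50) with combination 2, the latter not called, though it was without combination 2 replicate 3 (0.42). None of the scrambled arrays was above the olfactory background for GBP5, against 3 of 3 with combination 1 and 2 of 3 with combination 2. With the scrambled level set to that background, GBP5 was 1.5-fold higher with combination 1 (0.59 on the log2 scale), a point value without an interval. The combination 2 mean of 5.81 lay within the background levels of the scrambled arrays (5.74 to 5.85). Its difference of 0.35 thus rests on scrambled signals below background and does not give the size of a rise. The call between the combinations (−0.56) was lost when combination 2 replicate 1 or any of the combination 1 arrays was left out, while the value then stayed between −0.58 and −0.56.

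GBP6, a member whose expression is best known from squamous epithelia, behaved in another way. It gave 7.61, 7.69 and 7.54 with scrambled siRNA, 8.70, 8.54 and 8.50 with combination 1, and 8.50, 8.63 and 8.60 with combination 2. Both depleted groups were above all controls and overlapped each other. The difference was 0.97 ± 0.07 (SE, n = 3) with combination 1 and 0.96 ± 0.07 with combination 2, or 1.96-fold and 1.95-fold, and the combinations differed by −0.0039 with a 95% interval of −0.17 to 0.16. GBP6 ranked 9 from the top among all genes with combination 2 and 48 with combination 1. Neither call was lost when any single array was left out.

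GBP2 was closest to GBP6 within the family in its pattern, at smaller differences. It gave 6.46, 6.46 and 6.36 with scrambled siRNA, 7.11, 7.05 and 6.82 with combination 1, and 6.86, 6.84 and 7.13 with combination 2. Again the depleted groups overlapped each other above the controls. The difference was 0.57 ± 0.10 (SE, n = 3) with combination 1, which was called, and 0.52 (95% interval 0.29 to 0.75) with combination 2, which was not. The combination 1 call was lost with 7 of the 9 arrays left out singly, all but combination 1 replicate 3 and combination 2 replicate 3, at values of 0.51 to 0.59. The direct difference between the combinations was −0.052 (95% interval −0.28 to 0.18).

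GBP3, which takes part in the activation of caspase-4, gave 9.53, 9.57 and 9.43 with scrambled siRNA, 9.88, 9.87 and 9.91 with combination 1, and 9.41, 9.43 and 9.65 with combination 2. Its pattern was that of GBP1 at a smaller size. The difference of 0.38 with combination 1 (95% interval 0.21 to 0.55, limma adjusted p = 0.0525) fell just outside the threshold, and that with combination 2 was −0.011 (−0.18 to 0.16). Without combination 2 replicate 3, the highest of its group, the combination 1 difference was called at an unchanged value, and so was that between the combinations, at −0.46 in place of −0.39.

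GBP7, known from mouse macrophages for assembling an oxidase against bacteria, gave 4.81, 4.92 and 4.85 with scrambled siRNA, 5.14, 5.21 and 5.16 with combination 1, and 5.06, 4.94 and 5.10 with combination 2. It was below the olfactory background on all 9 arrays, so that its signal cannot be told from that of genes with no known use in these cells. The difference of 0.31 with combination 1 (limma adjusted p = 0.0498) lay just inside the threshold and was lost with 8 of the 9 arrays left out singly, all but combination 2 replicate 3, at values of 0.28 to 0.34. With combination 2 the difference was 0.17 (95% interval 0.03 to 0.31).

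**Figure D2:**
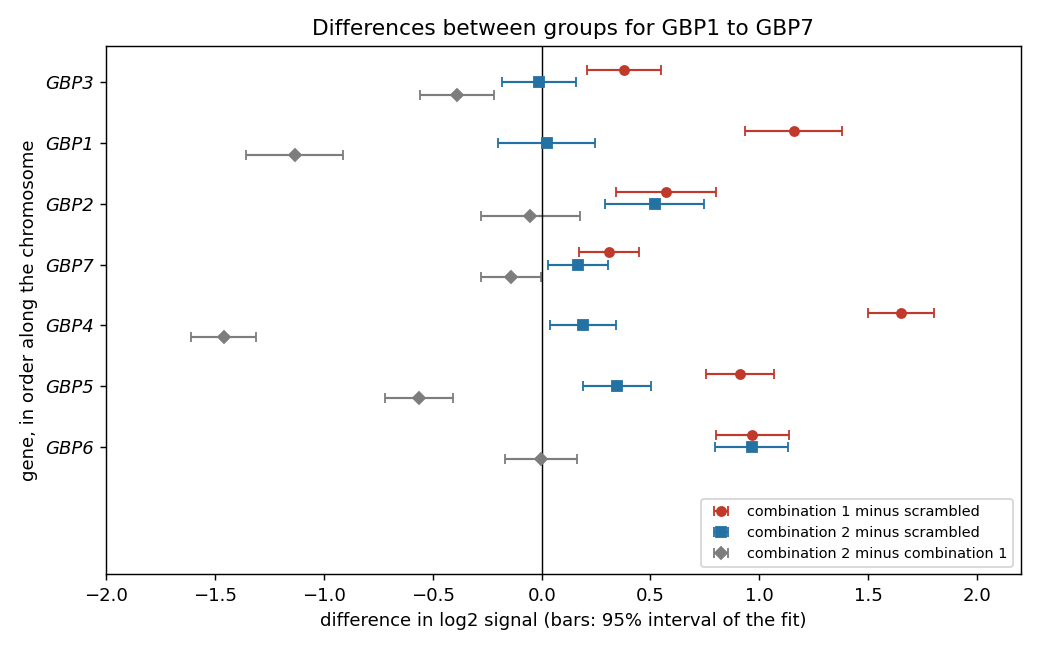
Difference in log2 signal (horizontal axis) for each gene in its order along chromosome 1, for the 2 comparisons with scrambled siRNA and for the direct comparison of the combinations, with bars for the 95% interval of the fit. The interval of combination 2 holds 0 for GBP1 and GBP3, and for GBP6 both combinations sit at 0.97 and 0.96.

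The order of differences did not follow the order of the genes along the chromosome. GBP3 and GBP1 are neighbours and differed by 0.38 and 1.16 with combination 1, and GBP5 and GBP6 are neighbours at 0.35 and 0.96 with combination 2. The value of GBP5 rests on scrambled signals under the olfactory background. The stretch from GBP3 to GBP1P1 holds 13 of the genes tested, 6 of them outside the family. None of these 6 was called in any of the 3 comparisons. Over all genes 0.68% were called higher and 0.833% lower with combination 1, and smaller shares in the other comparisons. With shares this low, the lack of a call among 6 genes is not read as a result. The pseudogene GBP1P1 differed by 0.46 with combination 1 (limma adjusted p = 0.0839) and by 0.073 with combination 2 (limma adjusted p = 0.814). The noncoding gene LOC105378841 beside GBP1 differed by 0.27 with either combination, at a signal of 3.72 to 3.98, and LOC105378842 beside GBP7 by 0.13 and 0.094. LOC107985076 beside GBP4 differed by 0.036 and 0.27. A pair of pseudogenes lay on the other side of 0. PTGES3P1, between GBP1 and GBP2, differed by −0.50 with combination 1 (limma adjusted p = 0.0566) and by −0.32 with combination 2, and all arrays of both depleted groups were below all scrambled arrays. LOC729930, between GBP5 and GBP6, differed by −0.50 with combination 1, where no arrays overlapped, and by −0.025 with combination 2. The share of all genes lying below the controls without overlap was not computed. Members of this family and GBP1P1 resemble each other in sequence, and signal from one copy in the probes of another cannot be told apart in these values.

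Over the 9 arrays the signals of GBP1, GBP3 and GBP4 went together, with Pearson r of 0.98 for GBP1 with GBP4, 0.96 for GBP1 with GBP3 and 0.93 for GBP3 with GBP4. GBP6 was close to GBP2 (r = 0.94) and less so to GBP4 (0.59), GBP1 (0.51) and GBP3 (0.46). GBP5 and GBP7 lay between, GBP5 with r of 0.95 to GBP4, 0.90 to GBP1, 0.80 to GBP3, 0.77 to GBP6 and 0.72 to GBP2, and GBP7 with r from 0.78 to 0.86 to the other members. These r values describe 9 arrays in 3 groups and mostly repeat the group means. Those of GBP7 rest on a signal under the olfactory background on all 9 arrays, so its place is uncertain. By the same measure, over the 250 protein-coding genes outside the family with a span of at least 1 on the log2 scale, the 5 genes most like GBP1 were EPSTI1, IFIT2, IFI16, RIGI and RSAD2 (r from 0.98 to 0.99). Those most like GBP4 were TRIM22, IFIT1, RIGI, RSAD2 and EPSTI1 (all at 0.99). IFIT1 and IFIT2 bind viral RNA, RIGI is a sensor of it, RSAD2 makes a nucleotide that stops viral polymerases, and IFI16 binds foreign DNA. TRIM22 is an antiviral ubiquitin ligase.

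The 5 genes most like GBP6 were others, namely EMP1 (r = 0.997), HAS2 (0.988), MAST4 (0.986), ITGB8 (0.980) and ADGRF4 (0.973). EMP1 is an epithelial membrane protein, HAS2 a hyaluronan synthase, ITGB8 an integrin subunit, MAST4 a kinase and ADGRF4 an adhesion receptor. EMP1 differed by 0.95 with combination 1 and 0.95 with combination 2, and HAS2 by 1.04 and 0.98. IFIT2, in contrast, differed by 1.56 and −0.013, and TRIM22 by 1.66 and 0.34. The choice of these genes by likeness fixes their agreement with the member.

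**Figure D3:**
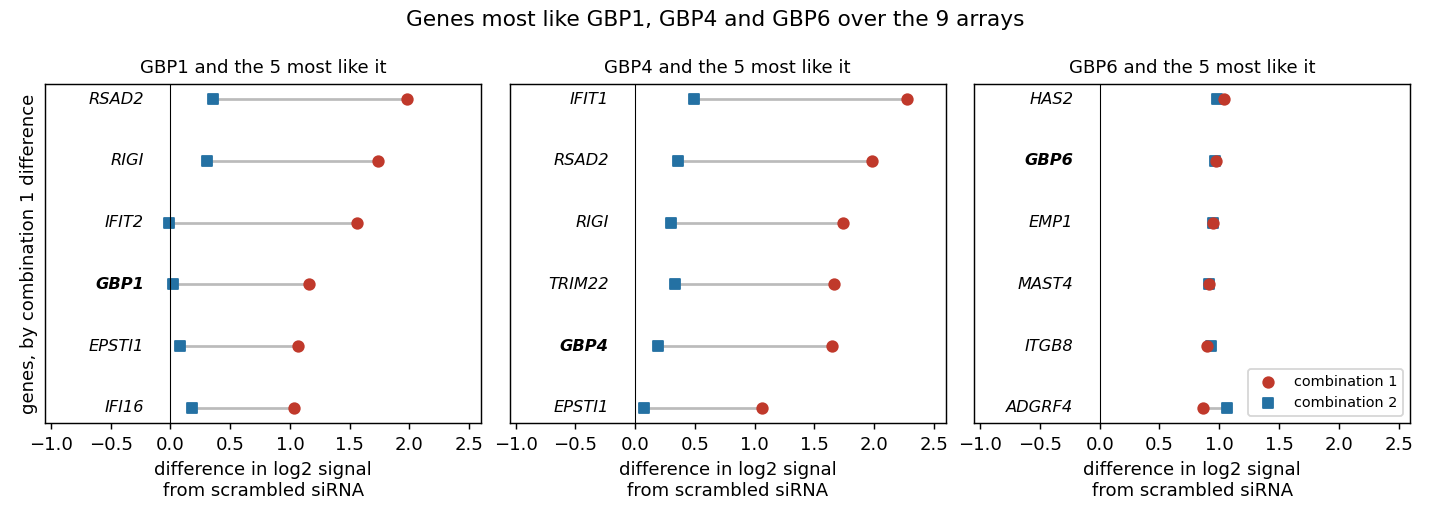
Difference in log2 signal from scrambled siRNA (horizontal axis) with combination 1 (circles) and combination 2 (squares) for GBP1, GBP4 and GBP6, each with the 5 genes of highest Pearson r over the 9 arrays. The symbols lie far apart for GBP1 and GBP4 and their companions, and on top of each other for GBP6 (0.97 and 0.96) and EMP1 (0.95 and 0.95).

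The genes around the family in the interferon pathways were taken from 5 lists. For the counts of all lists, 0.68% of all genes were called higher and 0.833% lower with combination 1. With combination 2 these shares were 0.304% and 0.446%, and between the combinations 0.0968% and 0.237%. The list from the interferon gamma receptor to its transcription factors also holds inhibitors of this route, such as SOCS1 and PTPN2. Of its 16 measured genes, 2 were called higher with combination 1 and none lower. They were IRF2, a regulatory factor that binds the ISRE (0.49, limma adjusted p = 0.00163), and IRF9, the DNA-binding part of the type I interferon complex (0.72, limma adjusted p = 0.00790). With combination 2 only IRF2 was called (0.38, limma adjusted p = 0.0104), and none was called between the combinations. The ligand IFNG had a signal of 3.55 to 4.11, under the olfactory background on all 9 arrays, so that its differences of −0.091 and −0.056 do not measure the ligand. The receptor chain IFNGR1 differed by 0.11 and 0.095 and IFNGR2 by 0.22 and 0.17, and the kinases JAK1 by 0.012 and 0.074 and JAK2 by 0.066 and 0.019, none of them called. IRF1, a factor known to drive GBP genes, differed by 0.34 with combination 1 (limma adjusted p = 0.144) and by −0.021 with combination 2 (limma adjusted p = 0.948), also not called. The other 2 genes of this list were not analysed here.

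Of 20 targets linked to interferon gamma, 8 were called higher and 1 lower with combination 1, and the median over all 20 was 0.37. Of the 20, 5 were under the olfactory background on all scrambled and combination 1 arrays, and CXCL10 (0.57) was the only one of these 5 called. The higher ones included the apolipoproteins APOL6 (0.79, limma adjusted p = 2.41e-04), APOL1 (0.77) and APOL2 (0.67) and PSMB9, a subunit of the immunoproteasome (0.81). CD274, which encodes the checkpoint ligand PD-L1, was lower with combination 1 (−0.36) and with combination 2 (−0.63, limma adjusted p = 0.00352). With combination 2 only APOL1 (0.36) and APOL2 (0.32) were called higher, and between the combinations APOL6 (−0.51) and APOL1 (−0.41) were lower with combination 2.

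Of 21 targets linked to type I interferon, 20 were called higher with combination 1 and none lower, and the median over all 21 was 1.56. The exception was HERC5 (0.20), which was under the olfactory background on all 9 arrays. IFIT1 rose by 2.28 (limma adjusted p = 4.1e-05) and DDX60, a helicase, by 1.38. RSAD2 and CMPK2, a mitochondrial nucleotide kinase, differed by 1.98 and 1.24, but were under the olfactory background on all scrambled arrays. With their scrambled level set to that background they were 3.70-fold and 1.89-fold higher, as point values without an interval. With combination 2 the count was 2, DDX60 (0.62) and IFI44 (0.57), with a median of 0.36 over all 21. Between the combinations 16 were lower with combination 2, with a median of −1.11 over all 21 and −1.22 over the 16. GBP1, GBP4 and GBP5 had their calls between the combinations in the same direction as these 16, and GBP6 had a difference of −0.0039. This list was known to be raised on these arrays when it was chosen.

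Among 7 measured GTPase relatives the dynamin-like MX2 (2.28) and MX1 (1.67), which also belong to the preceding list, were called higher with combination 1 and none with combination 2. Both were lower with combination 2 than with combination 1 (MX2 by −1.78 and MX1 by −1.19). The immunity-related GTPase IRGM and the atlastins ATL1 and ATL3 differed by 0.012, 0.10 and −0.19 with combination 1, none of them called, and IRGM was under the olfactory background on all 9 arrays. Of 15 partners of the proteins, RNF213, a large ubiquitin ligase that also coats bacteria, was called higher with combination 1 (1.32, limma adjusted p = 2.23e-04) and with combination 2 (0.54, limma adjusted p = 0.0316) and lower with combination 2 than with combination 1 (−0.78). AIM2, a sensor of DNA in the cytosol, was called higher with combination 1 only among the comparisons with scrambled siRNA (0.68, against 0.38 with combination 2), and its difference between the combinations was not called. Its signal stayed between 4.55 and 5.36, under the olfactory background. CASP4, which encodes caspase-4, differed by −0.037 and −0.18, and the enzymes that attach and process the lipid anchor, FNTA, FNTB, PGGT1B, RCE1 and ICMT, differed by −0.20 to 0.03 with combination 1, none of them called.

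**Figure D4:**
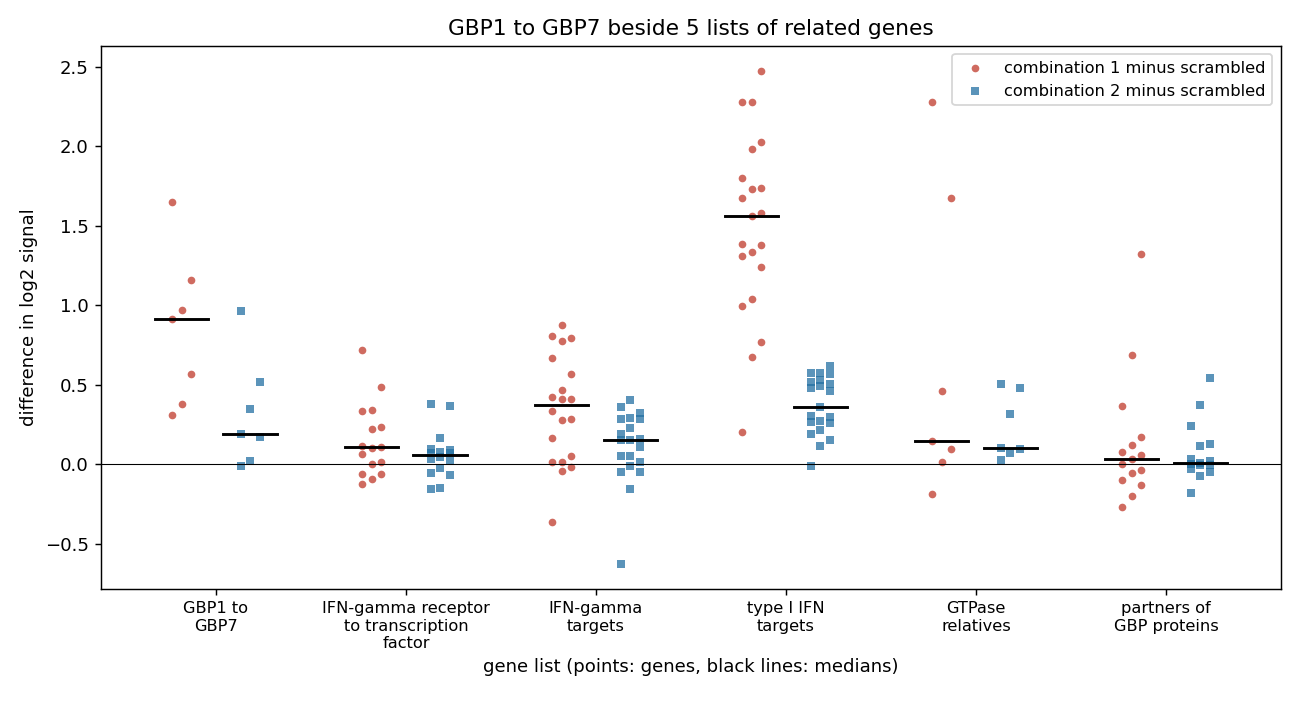
Difference in log2 signal from scrambled siRNA (vertical axis) for the 7 family members and the measured genes of 5 lists, with combination 1 as circles, combination 2 as squares and a black line at each median. The type I interferon targets have medians of 1.56 and 0.36, and the family members of 0.91 and 0.19. The list from receptor to transcription factor, inhibitors included, has medians of 0.11 and 0.06. MX1 and MX2 appear both under the type I targets and under the GTPase relatives.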

How the data were processed

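RNA of HUCCT-1 cells was hybridised to Clariom D arrays. The authors background-corrected and normalised the scans by RMA with a custom chip definition, and deposited log2 signals, 1 value per gene on each of 9 arrays. The genome build was not given in the sources used here. All array medians were 5.81. Scrambled replicate 1 held 29641 distinct values, against 7528 on every other array. Of 39334 probe sets, 37201 had 1 gene symbol and were tested, and 37154 of them matched RefSeq.

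A model of 3 group means was fitted to all 9 arrays with limma 3.58.1 in R 4.3.3 (moderated variances), with Benjamini-Hochberg adjustment over all 37201 genes. The number of arrays limits the precision. Fits were tested on simulated data.

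The members and lists were chosen with earlier results of these data known. Named genes are the 7 members, the siRNA targets, up to 4 genes per list and comparison with the smallest p, list genes whose role bears on the family, and the 5 genes most like each member that spans at least 1 log2 unit, together with neighbours on the chromosome and the lipid anchor enzymes, chosen after their values were seen. Other settings tried were a model with a replicate block, array weights, no moderation of the variances, a trend with a robust fit, quantile normalization, centring on array medians, the 6 arrays of a comparison alone, a rounded scrambled replicate 1, each array left out, and another set of genes (every probe set, protein-coding genes, or all but the dimmest 40%). Signals of different genes come from different probes and were not set against each other, except against the olfactory background level. That level comes from other probes too and is only a rough guide. Protein sequences were not used here.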

Additional observations from a re-analysis of the deposited data

Results flagged for a closer look

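The effects of the combinations against the same scrambled arrays differed for 3 members by the direct contrast in limma. Combination 2 was lower than combination 1 by a log2 value of −1.13 for GBP1, −1.46 for GBP4 and −0.56 for GBP5. The calls of GBP1 and GBP4 held in every setting tried, while that of GBP5 was lost with 4 of the 9 arrays left out singly and in 3 other settings. The combinations differ in both of their siRNAs, so the part of each siRNA cannot be told apart.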

How the results depend on the processing

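The count of members called with combination 1 was 6 and ran from 4 to 7 with each array left out. That with combination 2 was 1 and ran from 1 to 2, reaching 2 without combination 2 replicate 3. It was 3 with protein-coding genes only and without the dimmest 40% of probe sets, and 2 with a trend and robust fit and with weights per array. The count between the combinations was 3 and ran from 2 to 4. With the replicate block the counts were 4, 1 and 2. Same-numbered arrays did not deviate together (correlation of deviations −0.18 to 0.05), so the numbers were not taken as a pairing. Differences near 0 changed sign. GBP1 with combination 2 was −0.062 with weights per array and −0.046 to 0.11 with each array left out, GBP3 −0.088 to 0.032, and between the combinations GBP2 lay at −0.14 to 0.0072 and GBP6 at −0.042 to 0.056. In the other settings, GBP7 lost its combination 1 call in 5, GBP2 in 2 and GBP3 gained one in 7. With combination 2, GBP2 and GBP5 gained a call in 3 each. GBP5 lost its call between the combinations in 3. The calls of GBP1, GBP4 and GBP6 were kept in every setting, and GBP7 was not tested without the dimmest probe sets. Over all genes 563, 279 and 124 were called, and across the settings 196 to 1095, 48 to 733 and 42 to 340.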
